A study of Homo sapiens with 8 samples.

Results

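The 2-oxoglutarate dioxygenases other than the TETs were followed in NCCIT cells after depletion of each TET by RNA interference. The members were 48 enzymes that use 2-oxoglutarate and iron, listed by name under a rule that holds no measured value. Of these, 47 had a probe group (transcript cluster) annotated to their symbol alone, out of 18417 genes measured that way, and 44 of the 47 lay above background on all 8 arrays. EGLN2, a hydroxylase of the hypoxia-inducible factors (HIFs), shared its probe group with a readthrough transcript, so no value was given to it. NCCIT is a line of human embryonal carcinoma cells. The cells received pooled siRNAs against TET1 (siTET1), TET2 (siTET2) or TET3 (siTET3), or a non-targeting control siRNA (siNTC). Each of the 4 groups held 2 Affymetrix Human Gene 1.0 ST arrays, and the depletions were transient and partial. The labels do not call the replicates separate cultures, so the p-values cover only the variation from array to array. In RNA from whole cultures, less transcript per cell and fewer cells of a kind cannot be told apart.

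The TETs belong to this same enzyme superfamily. Its members bind iron, split 2-oxoglutarate and oxygen into succinate and carbon dioxide, and place a hydroxyl group on a substrate. Where the hydroxyl group lands on a methyl group, as with histone lysines and methylated nucleic acid bases, the product can fall apart and the methyl group is removed. Where it lands on a proline, lysine or asparagine, it stays, as in collagen chains and HIF subunits. Several of the genes, including P4HA1, P4HA2 and PLOD2, are known HIF targets in other human cells, and HIF binds DNA through short core letters, ACGTG or GCGTG.

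The promoters of the 4 collagen hydroxylases with higher signals after every depletion are printed because their transcripts moved together, a choice made after the values were seen. Each is the 250 bases before a start listed by RefSeq (GRCh38.p14, all 4 genes on the minus strand), written 5′ to 3′. P3H2 lies at chr3:189956728-190122278, and its first window (chr3:190122279-190122528) precedes the outermost start. Its second window (chr3:190120898-190121147) precedes a start inside the gene. The P4HA1 gene (chr10:73007217-73096866) is preceded by the window chr10:73096867-73097116. The PLOD2 gene (chr3:146069440-146161184) is preceded by the window chr3:146161185-146161434. The P4HA2 window (chr5:132227092-132227341) precedes a start inside the gene (chr5:132190147-132227853). Capitals mark ACGTG or GCGTG on either strand, so that CACGT and CACGC are the same letters read from the other strand, and CACGTG holds ACGTG on both strands.
P3H2, outermost start: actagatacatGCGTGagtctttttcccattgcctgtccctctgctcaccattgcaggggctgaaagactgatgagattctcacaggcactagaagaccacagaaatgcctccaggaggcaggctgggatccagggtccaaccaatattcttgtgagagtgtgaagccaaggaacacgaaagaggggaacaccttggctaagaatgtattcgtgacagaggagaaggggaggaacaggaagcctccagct
P3H2, inner start: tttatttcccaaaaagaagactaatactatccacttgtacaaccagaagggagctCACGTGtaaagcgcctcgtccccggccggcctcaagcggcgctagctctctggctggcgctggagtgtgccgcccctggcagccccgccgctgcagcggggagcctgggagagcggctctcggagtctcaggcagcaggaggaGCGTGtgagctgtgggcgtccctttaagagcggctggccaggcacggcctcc
P4HA1: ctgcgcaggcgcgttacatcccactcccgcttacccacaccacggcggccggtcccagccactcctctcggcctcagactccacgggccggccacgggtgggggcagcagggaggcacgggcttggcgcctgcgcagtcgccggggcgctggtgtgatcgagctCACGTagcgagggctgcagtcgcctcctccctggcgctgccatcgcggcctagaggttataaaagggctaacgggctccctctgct
PLOD2: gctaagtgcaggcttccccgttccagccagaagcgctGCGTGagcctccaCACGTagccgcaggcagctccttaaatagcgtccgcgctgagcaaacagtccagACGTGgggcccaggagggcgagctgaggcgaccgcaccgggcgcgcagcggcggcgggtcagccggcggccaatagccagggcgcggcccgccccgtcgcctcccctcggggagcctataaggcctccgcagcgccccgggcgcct
P4HA2: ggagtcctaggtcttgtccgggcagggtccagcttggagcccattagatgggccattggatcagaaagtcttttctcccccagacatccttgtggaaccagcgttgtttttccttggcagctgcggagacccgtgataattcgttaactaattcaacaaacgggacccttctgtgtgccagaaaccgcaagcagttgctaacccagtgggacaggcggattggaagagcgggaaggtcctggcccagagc

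PLOD2 held ACGTG at 2 places, beginning 200 and 146 bases before the start, and GCGTG at 213 bases. P4HA1 held 1 ACGTG, at 86 bases. The inner P3H2 window held CACGTG, whose ACGTG letters were found on both strands at 195 and 194 bases, and GCGTG at 52 bases, and the outermost window held GCGTG alone, at 239 bases. P4HA2 held no match in its window. RefSeq windows were given for 42 of the measured members (57 windows). ACGTG occurred in 9 of the 57, against 18.5% of all 35116 windows, and GCGTG in 29 of the 57, against 32.2%. CACGTG, which overlaps ACGTG, occurred in 5 of the 57, against 6.3% of all windows. Either ACGTG or GCGTG occurred in 33 of the 57, against 43.2% of all windows, and in 26 of the 42 members. Collagen hydroxylases that were not higher held matches too. PLOD1, lower after every depletion, held GCGTG at 68 and 25 bases, and P3H1 held GCGTG at 220 bases. The PLOD3 and P3H3 windows held no match. A match describes the letters and not a bound site.

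The arrays and labels were checked first. Array medians lay between 6.22 and 6.27 on the log2 scale. Over genes, replicate arrays correlated at 0.998 to 0.999, arrays of different depletions at 0.995 to 0.998, and depletion with siNTC arrays at 0.989 to 0.991. The siNTC arrays therefore stood apart from all depletion arrays, and each comparison with siNTC used the same 2 control arrays. TET1, TET2 and TET3 are the targeted dioxygenases. TET1 had 9.91 and 9.87 in siTET1, 10.28 and 10.28 in siTET2, and 10.93 and 11.05 in siTET3, against 10.62 and 10.53 in siNTC. TET2 had 7.62 and 7.64 in siTET1, 6.95 and 6.92 in siTET2, and 7.22 and 7.48 in siTET3, against 7.71 and 7.91 in siNTC. TET3 had 7.25 and 7.12 in siTET1, 7.60 and 7.50 in siTET2, and 6.23 and 6.66 in siTET3, against 7.74 and 7.30 in siNTC. Each siRNA thus went with the lowest values of its own target, at 62.3% (TET1), 54.4% (TET2) and 47.4% (TET3) of the siNTC level. By the test described below, TET1 was also lower in siTET2, and in siTET3 TET2 was lower and TET1 higher. Those 2 groups therefore differed from siNTC in more than the targeted TET. All 7 measured markers of pluripotent embryonal carcinoma lay above background (means of 10.27 to 12.57), among them SOX2, LIN28A and SALL4. Of the other lists, none of 3 haematopoietic, 3 of 7 fibroblast (COL1A1, COL3A1, THY1), 1 of 2 neural (MAP2), 1 of 5 endoderm (GATA4) and 1 of 4 trophectoderm (HAND1) markers lay above it. Background was set at a log2 value of 5.23, which 95% of 361 genes for olfactory receptors, rarely used outside the nose, did not exceed in their mean.

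A member was said to be higher or lower where the moderated test of limma, fitted to all genes and arrays, gave an adjusted p (Benjamini-Hochberg over the 18417 genes of that comparison) under 0.05. All changes are log2 differences ± the standard error of the fit. Each call was repeated under 15 other settings at the same threshold: another normalization or model, another choice of genes or probe groups, the neighbours' shift subtracted, or 1 array left out. A minimum of 1.5-fold is a stricter threshold, not 1 of these settings, and its counts are given apart. Some settings left the change itself as it was. Every member but KDM8 had 1 probe group, and an array of a group outside the comparison entered only the estimate of the spread. Where left-out arrays are named for a lost call, other settings may have lost it too. An adjusted p given as an upper limit (up to) is the highest over all settings. Of the 47 members, 10 were higher and 8 lower in siTET1 than in siNTC, while 15.6% of all genes were higher and 18.7% lower. In siTET2, 16 were higher and 13 lower, against 14.4% and 21.8% of all genes. In siTET3, 10 were higher and 15 lower, against 13.8% and 22.3%. In the mean of the 3 depletions, 16 were higher and 16 lower, against 16.5% and 24.2%. Quantile normalization changed the split to 11 higher and 5 lower in siTET1, to 15 and 11 in siTET3, and to 17 and 11 in the mean. Nearly all members are expressed, and expressed genes passed the test more often. Of the 12682 genes above background, 22% were higher and 23.6% lower in siTET1, 20% and 28.1% in siTET2, 18.2% and 29.8% in siTET3, and 22.7% and 30.5% in the mean. The 44 members above background came to 22.7% higher and 15.9% lower in siTET1, 36.4% and 27.3% in siTET2, 22.7% and 31.8% in siTET3, and 36.4% and 34.1% in the mean. The members' shares in siTET1 and siTET3 were thus close to those of other expressed genes or below them, and the share of higher members in siTET2 was above. Changes of at least 1.5-fold were few. They were seen in 4 members in siTET1 (8.51%, against 5.13% of all genes) and 6 in siTET2 (12.8%, against 6.16%). There were 3 in siTET3 (6.38%, against 5.91%) and 5 in the mean (10.6%, against 5.18%).

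**Figure D1:**
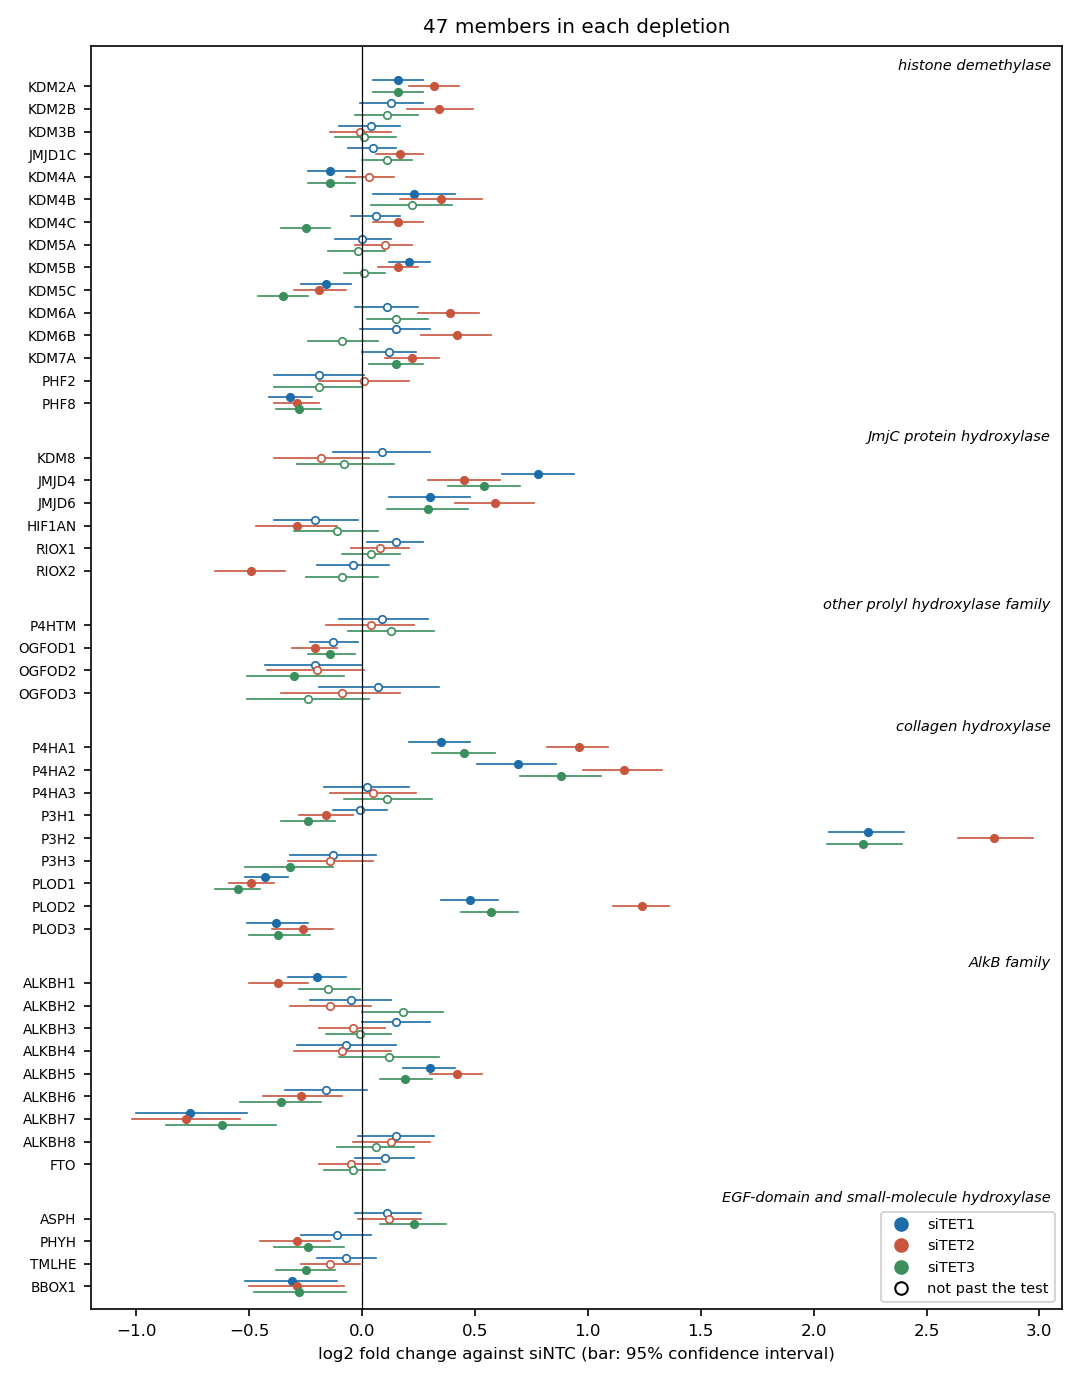
Log2 fold change of each of the 47 measured members in siTET1, siTET2 and siTET3 against siNTC, ordered by role. Bars are 95% confidence intervals of the fit, filled points passed the test and open points did not. P3H2 lies far to the right of every other member, from 2.22 to 2.80, and most others lie within 0.5 of 0.

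The collagen hydroxylases held the largest changes. They act on procollagen chains in the endoplasmic reticulum, before the chains fold into a triple helix. Of 9 measured, 4 were higher and 2 lower in siTET1, 4 and 3 in siTET2, and 4 and 4 in siTET3. Expressed genes came to 22% higher and 23.6% lower in siTET1, 20% and 28.1% in siTET2, and 18.2% and 29.8% in siTET3. The higher collagen hydroxylases were P3H2, P4HA1, P4HA2 and PLOD2 each time, and PLOD1 and PLOD3 were lower each time. Every call on these 6 in a single depletion was kept under all 15 settings, though PLOD1, PLOD3, and P4HA1 and PLOD2 outside siTET2, stayed under 1.5-fold.

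P3H2, a prolyl 3-hydroxylase that acts mainly on basement membrane collagen, changed most. It had 8.73 and 8.75 on the siTET1 arrays, 9.29 and 9.32 on the siTET2 arrays, and 8.70 and 8.74 on the siTET3 arrays, against 6.37 and 6.63 on the siNTC arrays. No depletion array came near the siNTC arrays, and the siTET2 arrays were above the rest. The change was 2.24 ± 0.076 in siTET1 (4.72-fold, adjusted p = 9.96e-10), 2.80 ± 0.076 in siTET2 (6.98-fold, adjusted p = 7.89e-11) and 2.22 ± 0.076 in siTET3 (4.66-fold, adjusted p = 9.87e-10), all by limma.

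P4HA1 and P4HA2 encode the catalytic alpha subunits of collagen prolyl 4-hydroxylase, which makes the 4-hydroxyproline that stabilises the helix. P4HA1 had 9.02 and 8.98 in siTET1, 9.60 and 9.63 in siTET2, and 9.03 and 9.18 in siTET3, against 8.73 and 8.58 in siNTC. The siTET2 arrays were the highest and the siNTC arrays the lowest, with no overlap. P4HA1 was higher by 0.35 ± 0.063 (limma adjusted p = 0.000788) in siTET1, 0.96 ± 0.063 (adjusted p = 1.26e-07) in siTET2 and 0.45 ± 0.063 (adjusted p = 8.86e-05) in siTET3. P4HA2 had 7.39 and 7.47 in siTET1, 7.93 and 7.87 in siTET2, and 7.54 and 7.71 in siTET3, against 6.69 and 6.80 in siNTC. Its order of groups was the same, again without overlap between depletion and siNTC arrays. P4HA2 was higher by 0.69 ± 0.082 in siTET1 (adjusted p = 2.4e-05), 1.16 ± 0.082 in siTET2 (adjusted p = 2.29e-07) and 0.88 ± 0.082 in siTET3 (adjusted p = 2.67e-06). The third alpha subunit, P4HA3, lay below background on all 8 arrays.

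The lysyl hydroxylases moved in both directions. PLOD2, which hydroxylates the telopeptide lysines used for cross-links, had 9.24 and 9.13 in siTET1, 9.92 and 9.98 in siTET2, and 9.23 and 9.33 in siTET3, against 8.76 and 8.66 in siNTC. Every depletion array was above siNTC, and the siTET2 arrays were the highest. The change was 0.48 ± 0.058 in siTET1, 1.24 ± 0.058 in siTET2 and 0.57 ± 0.058 in siTET3 (limma adjusted p = 3.14e-05, 7.62e-09 and 6.08e-06). PLOD1, which acts on helical lysines, had 9.52 and 9.57 in siTET1, 9.49 and 9.46 in siTET2, and 9.40 and 9.46 in siTET3, against 9.98 and 9.96 in siNTC. All 6 depletion arrays were below both siNTC arrays, and the change was -0.43 ± 0.046 in siTET1, -0.49 ± 0.046 in siTET2 and -0.55 ± 0.046 in siTET3 (adjusted p = 1.07e-05, 2.51e-06 and 1.14e-06). PLOD3, a lysyl hydroxylase that also glycosylates collagen, had 8.22 and 8.29 in siTET1, 8.35 and 8.38 in siTET2, and 8.20 and 8.33 in siTET3, against 8.63 and 8.64 in siNTC. It too was below siNTC throughout, by -0.38 ± 0.063 in siTET1, -0.26 ± 0.063 in siTET2 and -0.37 ± 0.063 in siTET3 (adjusted p = 0.000429, 0.00508 and 0.000493).

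P3H1, the 3-hydroxylase that works in a complex with CRTAP and the prolyl isomerase PPIB, was at -0.01 in siTET1 (adjusted p = 0.92), lower by -0.16 in siTET2 (limma adjusted p = 0.0395) and by -0.24 in siTET3 (0.00401). The siTET3 call was lost only under quantile normalization, with an adjusted p of up to 0.0612. The siTET2 call was lost without either siTET1, either siTET2 or the second siNTC array, and under 3 further settings, with an adjusted p of up to 0.214. P3H3 was lower in siTET3 (-0.32, adjusted p = 0.0119), a call lost without the second siNTC array and once its neighbours' median was subtracted, with an adjusted p of up to 0.669.

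**Figure D2:**
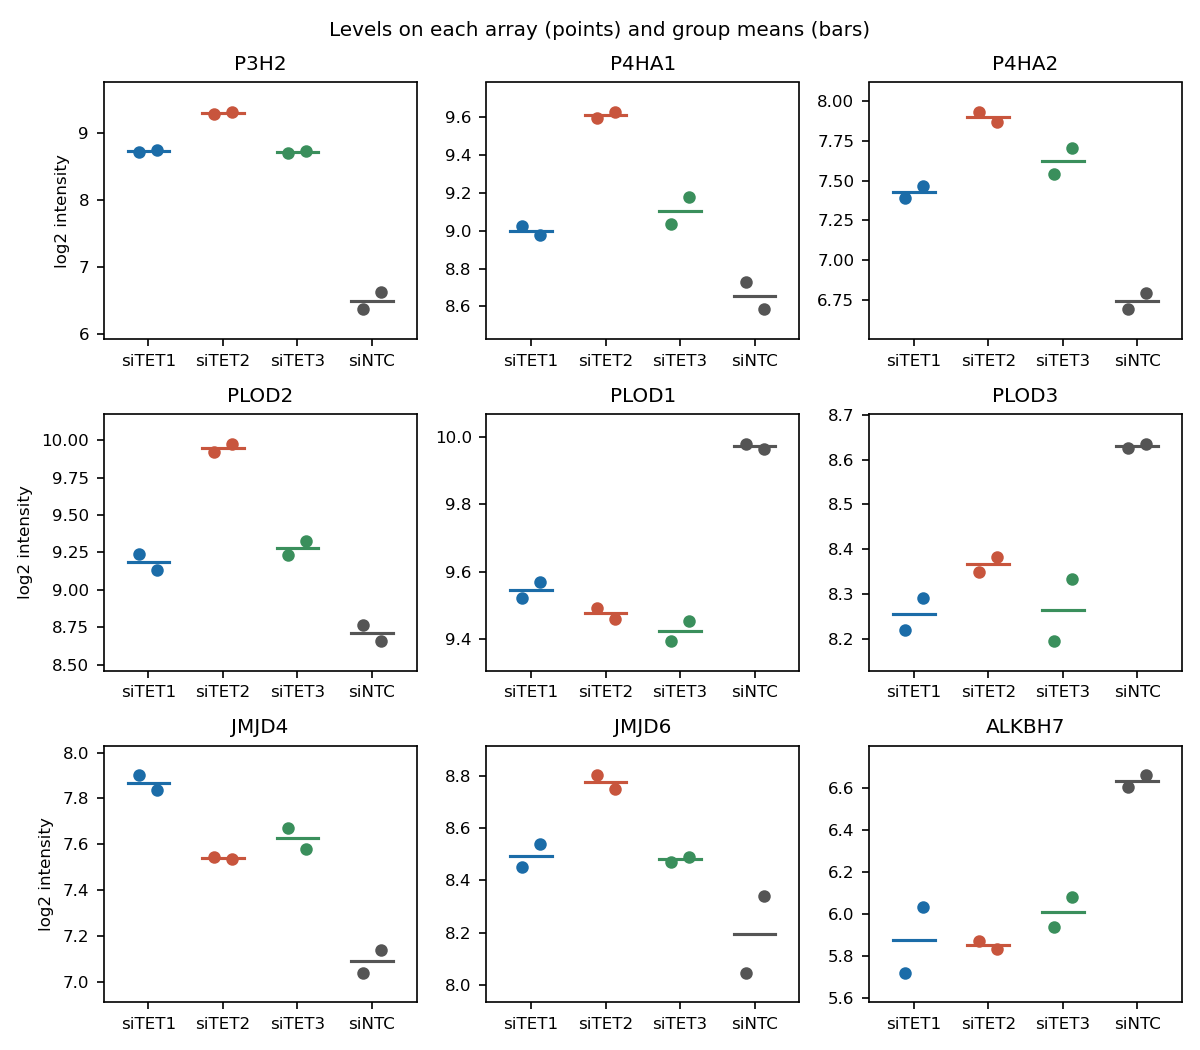
Log2 intensity on each array (points) and group mean (bars) for 9 members in siTET1, siTET2, siTET3 and siNTC, with a separate vertical scale for each gene. The siTET2 arrays are highest for P3H2, P4HA1, P4HA2, PLOD2 and JMJD6, the siTET1 arrays for JMJD4, and the siNTC arrays for PLOD1, PLOD3 and ALKBH7.

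Among the 6 measured JmjC protein hydroxylases, which modify proteins other than histones, JMJD4 and JMJD6 were higher in each depletion. RIOX2 and HIF1AN were lower in siTET2, making 2 higher and 2 lower there, and 2 and none in siTET1 and in siTET3. The shares of expressed genes were 22% higher and 23.6% lower in siTET1, 20% and 28.1% in siTET2, and 18.2% and 29.8% in siTET3. JMJD4, which hydroxylates the translation termination factor eRF1, had 7.90 and 7.84 in siTET1, 7.55 and 7.54 in siTET2, and 7.67 and 7.58 in siTET3, against 7.04 and 7.14 in siNTC. All depletion arrays exceeded the siNTC arrays, and siTET1 was the highest. The change was 0.78 ± 0.073 in siTET1 (limma adjusted p = 3.33e-06), 0.45 ± 0.073 in siTET2 (adjusted p = 0.000294) and 0.54 ± 0.073 in siTET3 (adjusted p = 7.4e-05), and these calls were kept under all 15 settings.

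JMJD6, a lysyl hydroxylase of splicing factors, had 8.45 and 8.54 in siTET1, 8.80 and 8.75 in siTET2, and 8.47 and 8.49 in siTET3, against 8.05 and 8.34 in siNTC. The siNTC arrays lay farther from each other than the replicates of any depletion did, although all depletion arrays were above both. It was higher by 0.59 ± 0.083 in siTET2 (limma adjusted p = 9.23e-05), by 0.30 ± 0.083 in siTET1 (adjusted p = 0.0118) and by 0.29 ± 0.083 in siTET3 (adjusted p = 0.0152). The siTET2 call was kept under all 15 settings. Without the first siNTC array the change was 0.15 in siTET1 (adjusted p = 0.129) and 0.14 in siTET3 (adjusted p = 0.165), and without the second siTET1 array it was 0.26 in siTET1 (adjusted p = 0.0977). Neither call passed once the median of the neighbouring genes was subtracted (adjusted p = 0.0649 and 0.0524).

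RIOX2, a histidyl hydroxylase of ribosomal protein RPL27A, had 8.26 and 8.37 in siTET1, 7.84 and 7.88 in siTET2, and 8.18 and 8.35 in siTET3, against 8.31 and 8.40 in siNTC. Only the siTET2 arrays lay below the rest, by -0.49 ± 0.073 against siNTC (limma adjusted p = 0.000135, kept under all 15 settings), while the siTET1 and siTET3 arrays overlapped siNTC. Its paralog RIOX1, which modifies RPL8, had 8.93 and 8.78 in siTET1, 8.79 and 8.79 in siTET2, and 8.76 and 8.74 in siTET3, against 8.73 and 8.68 in siNTC, and passed the test nowhere. HIF1AN, the asparaginyl hydroxylase that blunts HIF activity, had 8.53 and 8.58 in siTET1, 8.35 and 8.60 in siTET2, and 8.54 and 8.76 in siTET3, against 8.78 and 8.75 in siNTC. The siTET2 arrays were below siNTC but apart from each other, and the change of -0.29 ± 0.085 (adjusted p = 0.0164) was lost without the first siTET2 array or either siNTC array, with an adjusted p of up to 0.223. KDM8, an arginyl hydroxylase, was also past the test in no comparison.

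The 15 histone demethylases remove methyl groups mainly from lysines of histone H3. Of these, 3 were higher and 3 lower in siTET1, 9 higher and 2 lower in siTET2, and 2 higher and 4 lower in siTET3. All 15 lay above background, and of all expressed genes 22% were higher and 23.6% lower in siTET1, 20% and 28.1% in siTET2, and 18.2% and 29.8% in siTET3. None reached 1.5-fold against siNTC, and the changes ran from -0.35 to 0.42. In siTET2 the demethylases of the Polycomb mark, KDM6A and KDM6B, were higher by 0.39 ± 0.063 (limma adjusted p = 0.000306) and 0.42 ± 0.071 (adjusted p = 0.000441). KDM2A was higher there by 0.32 ± 0.051 (adjusted p = 0.000238), KDM2B by 0.34 ± 0.065 (0.000891), KDM4B by 0.35 ± 0.083 (0.00433) and KDM7A by 0.22 ± 0.055 (0.0062). These 6 siTET2 calls were kept under all 15 settings. In siTET1 and siTET3 the changes were 0.11 and 0.15 for KDM6A and 0.15 and -0.09 for KDM6B, none of them past the test. KDM2A was also higher in siTET1 (0.16 ± 0.051, adjusted p = 0.0271) and in siTET3 (0.16 ± 0.051, adjusted p = 0.0241). The first of these calls was lost without the second siTET1 or the first siNTC array (adjusted p up to 0.209), and the second without the first siTET3 or the first siNTC array (adjusted p up to 0.146). KDM4B was higher in siTET1 (0.23, adjusted p = 0.0438), a call lost when any siTET1, siTET2 or siNTC array was left out (adjusted p up to 0.203), and stood at 0.22 in siTET3 (adjusted p = 0.0544). KDM7A was higher in siTET3 (0.15, adjusted p = 0.0469), a call lost when any array but the second of siTET3 was left out (adjusted p up to 0.201), and stood at 0.12 in siTET1 (adjusted p = 0.111).

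PHF8, an X-linked demethylase of repressive histone marks, had 9.86 and 9.89 in siTET1, 9.91 and 9.89 in siTET2, and 9.92 and 9.91 in siTET3, against 10.14 and 10.24 in siNTC. The 6 depletion arrays were almost level and all below siNTC, by -0.32 ± 0.045 in siTET1, -0.29 ± 0.045 in siTET2 and -0.28 ± 0.045 in siTET3 (limma adjusted p = 0.000116, 0.000194 and 0.000298), calls kept under all 15 settings. KDM5C, which acts on the methyl mark of active promoters, was lower by -0.35 ± 0.052 in siTET3 (adjusted p = 0.000143, kept under all 15 settings), by -0.16 in siTET1 and by -0.19 in siTET2. The siTET1 call (adjusted p = 0.0267) was lost without the first siTET1 array or either siNTC array, with an adjusted p of up to 0.199. The siTET2 call (adjusted p = 0.0128) was lost without either siTET2 array or the second siNTC array, with an adjusted p of up to 0.0959.

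KDM4C, a demethylase of the heterochromatin mark, had 9.63 and 9.63 in siTET1, 9.70 and 9.76 in siTET2, and 9.28 and 9.35 in siTET3, against 9.62 and 9.52 in siNTC. Only siTET3 lay below siNTC, by -0.25 ± 0.051 (limma adjusted p = 0.00145, kept under all 15 settings). In siTET2 it was higher by 0.16 ± 0.051 (adjusted p = 0.0248), a call lost without either siTET2 array or the second siNTC array, with an adjusted p of up to 0.18.

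The 3 histone demethylases with the highest array values were KDM4A, KDM5B and JMJD1C. KDM4A had 10.70 and 10.74 in siTET1, 10.82 and 10.96 in siTET2, and 10.69 and 10.75 in siTET3, against 10.84 and 10.88 in siNTC. It was below siNTC by -0.14 ± 0.048 in siTET1 (limma adjusted p = 0.0419) and in siTET3 (0.0397), and both calls were lost without either siTET1 or either siNTC array, the siTET3 call also without the first siTET3 array, with an adjusted p of up to 0.207. KDM5B had 10.88 and 10.89 in siTET1, 10.81 and 10.85 in siTET2, and 10.72 and 10.65 in siTET3, against 10.71 and 10.64 in siNTC. The siTET3 arrays overlapped siNTC, while siTET1 was higher by 0.21 ± 0.041 (adjusted p = 0.00133, kept under all 15 settings) and siTET2 by 0.16 ± 0.041 (0.00807), the second call lost without the second siTET2 array or the second siNTC array (adjusted p up to 0.0831). JMJD1C, a relative of the demethylases of the KDM3 group, had 10.66 and 10.62 in siTET1, 10.75 and 10.77 in siTET2, and 10.69 and 10.71 in siTET3, against 10.67 and 10.51 in siNTC. Its siTET2 change of 0.17 ± 0.05 (adjusted p = 0.0181) was lost without either siTET2 array or the second siNTC array (adjusted p up to 0.181). KDM3B, KDM5A and PHF2 passed the test in no comparison.

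Members of the AlkB family remove methyl groups from nucleic acids or modify proteins. Of 9 measured, 1 was higher and 2 lower in siTET1, 1 and 3 in siTET2, and 1 and 2 in siTET3. Of expressed genes, 22% were higher and 23.6% lower in siTET1, 20% and 28.1% in siTET2, and 18.2% and 29.8% in siTET3. ALKBH7, a mitochondrial member that acts on protein, had 5.72 and 6.03 in siTET1, 5.87 and 5.84 in siTET2, and 5.94 and 6.08 in siTET3, against 6.60 and 6.66 in siNTC. All 6 depletion arrays lay below siNTC, though the siTET1 arrays lay apart from each other. It was lower by -0.76 ± 0.112 in siTET1 (1.69-fold, limma adjusted p = 0.000153), by -0.78 ± 0.112 in siTET2 (1.72-fold, adjusted p = 0.000107) and by -0.62 ± 0.112 in siTET3 (1.54-fold, adjusted p = 0.00067), kept under all 15 settings.

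The demethylases of N6-methyladenosine in RNA, ALKBH5 and FTO, were followed together. ALKBH5 had 10.11 and 10.17 in siTET1, 10.22 and 10.29 in siTET2, and 9.96 and 10.11 in siTET3, against 9.86 and 9.83 in siNTC. All depletion arrays were above siNTC, by 0.30 ± 0.052 in siTET1 (limma adjusted p = 0.000582), 0.42 ± 0.052 in siTET2 (3.48e-05) and 0.19 ± 0.052 in siTET3 (0.0103). The siTET3 call was lost without the second siTET3 array or the second siNTC array, with an adjusted p of up to 0.0887. FTO had 9.65 and 9.69 in siTET1, 9.46 and 9.57 in siTET2, and 9.46 and 9.60 in siTET3, against 9.63 and 9.51 in siNTC. Only its siTET1 arrays lay above both siNTC arrays, and FTO passed no test, with 95% confidence intervals of -0.03 to 0.23 in siTET1, -0.19 to 0.08 in siTET2 and -0.17 to 0.10 in siTET3.

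ALKBH1, which acts on transfer RNA, had 9.28 and 9.30 in siTET1, 9.10 and 9.15 in siTET2, and 9.25 and 9.44 in siTET3, against 9.51 and 9.48 in siNTC. It was lower by -0.37 ± 0.06 in siTET2 (limma adjusted p = 0.000319, kept under all 15 settings) and by -0.20 ± 0.06 in siTET1 (0.0189), the second lost when any siTET1 or siNTC array was left out (adjusted p up to 0.106). ALKBH6 was lower by -0.36 ± 0.082 in siTET3 (0.00386, kept under all 15 settings) and by -0.27 ± 0.082 in siTET2 (0.0226), the second lost when any siTET2 or siNTC array was left out (adjusted p up to 0.123). The repair enzymes of alkylated bases, ALKBH2 and ALKBH3, and also ALKBH4 and ALKBH8, were not past the test against siNTC.

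The remaining members changed little. OGFOD1, which hydroxylates ribosomal protein RPS23, had 10.55 and 10.48 in siTET1, 10.43 and 10.43 in siTET2, and 10.55 and 10.46 in siTET3, against 10.69 and 10.59 in siNTC. All 6 depletion arrays were below siNTC, by -0.21 ± 0.048 in siTET2 (limma adjusted p = 0.00324, kept under all 15 settings). In siTET3 the change was -0.14 ± 0.048 (0.0414), and it was lost under 10 of the 15 settings, including without either siTET1, either siTET2, the second siTET3 or the first siNTC array (adjusted p up to 0.456). OGFOD3 had 6.57 and 6.75 in siTET1, 6.49 and 6.49 in siTET2, and 6.14 and 6.56 in siTET3, against 6.60 and 6.56 in siNTC, with the siTET3 arrays apart from each other, and passed no test. OGFOD2 had 6.34 and 6.32 in siTET1, 6.39 and 6.29 in siTET2, and 6.13 and 6.35 in siTET3, against 6.57 and 6.51 in siNTC. Its siTET3 change of -0.30 (adjusted p = 0.0309) was lost without the first siTET3 array or either siNTC array (adjusted p up to 0.207). P4HTM, a transmembrane prolyl hydroxylase, lay below background on all arrays.

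The hydroxylases of small molecules were lower where they passed. TMLHE, the first enzyme of carnitine synthesis, had 9.50 and 9.52 in siTET1, 9.39 and 9.47 in siTET2, and 9.23 and 9.42 in siTET3, against 9.57 and 9.58 in siNTC. All depletion arrays were below siNTC, and siTET3 passed with -0.25 ± 0.06 (limma adjusted p = 0.0051), or 0.0514 without the first siTET3 array. PHYH, the peroxisomal hydroxylase of phytanic acid breakdown, had 7.87 and 7.92 in siTET1, 7.68 and 7.74 in siTET2, and 7.85 and 7.69 in siTET3, against 7.98 and 8.03 in siNTC. It passed in siTET2 (-0.29 ± 0.072, adjusted p = 0.00572, or 0.0596 without the first siTET2 array). In siTET3 it passed with -0.24 ± 0.072 (0.0214), a call lost without the second siTET3 or second siNTC array. That call was also lost under quantile normalization, with only the compared arrays and with the neighbours' median subtracted (adjusted p up to 0.195). ASPH, a hydroxylase of EGF-like domains, had 7.91 and 7.91 in siTET1, 7.95 and 7.88 in siTET2, and 8.05 and 7.99 in siTET3, against 7.84 and 7.76 in siNTC. It was higher in siTET3 by 0.23 ± 0.066 (0.0166), lost without the first siTET3 or second siNTC array (adjusted p up to 0.0959). BBOX1, the last enzyme of carnitine synthesis, passed the test as lower in each depletion but lay below background on all 8 arrays, so no fold is given. Of the 14 settings that held BBOX1, its call was kept under 11 in siTET1, 9 in siTET2 and 7 in siTET3. The limma adjusted p reached up to 0.238, 0.153 and 0.183.

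The depletions were next compared with each other, where the siNTC arrays enter only the estimate of the spread. Between siTET2 and siTET1, 6 members were higher and 2 lower, against 2.33% and 4.13% of all genes. At least 1.5-fold was reached by 2 of them, PLOD2 and P4HA1, against 0.364% of all genes. Between siTET3 and siTET1, none was higher and 6 were lower, against 3.82% and 9.94% of all genes, and the split was 2 higher and 2 lower after quantile normalization. Between siTET3 and siTET2, 3 were higher and 12 lower, against 4.94% and 7.24% of all genes, and PLOD2 alone reached 1.5-fold (0.516% of all genes). Among the 44 members above background, 13.6% were higher and 4.55% lower in siTET2 than in siTET1, against 3.3% and 5.95% of expressed genes. In siTET3 against siTET1, 0% were higher and 13.6% lower, against 4.91% and 14.3% of expressed genes. In siTET3 against siTET2, 6.82% were higher and 27.3% lower, against 6.89% and 10.4% of expressed genes.

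PLOD2, P4HA1 and P3H2 were higher in siTET2 than in siTET1, by 0.76 ± 0.058 (limma adjusted p = 9.93e-06), 0.61 ± 0.063 (adjusted p = 0.00013) and 0.57 ± 0.076 (adjusted p = 0.00103). They were lower in siTET3 than in siTET2, by -0.67 ± 0.058 (adjusted p = 1.86e-05), -0.51 ± 0.063 (adjusted p = 0.000254) and -0.58 ± 0.076 (adjusted p = 0.000361). These 6 calls were kept under all 15 settings, and both comparisons use the same siTET2 arrays. Between siTET3 and siTET1 the same genes differed by 0.09 (95% confidence interval -0.03 to 0.22), 0.11 (-0.03 to 0.24) and -0.02 (-0.18 to 0.15), none past the test. P4HA2 was higher in siTET2 than in siTET1 by 0.47 ± 0.082 (adjusted p = 0.00523). This call was lost without the first siTET1 array or either siTET2 array (adjusted p up to 0.0879). P4HA2 was lower in siTET3 than in siTET2 by -0.28 ± 0.082 (adjusted p = 0.044). The second call was lost when an array of siTET1, of siTET2 or the first of siTET3 was left out, and under further settings (adjusted p up to 0.264).

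Other members set 1 depletion apart. KDM4C was lower in siTET3 than in siTET1 (-0.31 ± 0.051, limma adjusted p = 0.0014) and than in siTET2 (-0.41 ± 0.051, adjusted p = 0.000218), and KDM6B was lower in siTET3 than in siTET2 (-0.50 ± 0.071, adjusted p = 0.000617). RIOX2 was higher in siTET3 than in siTET2 (0.40 ± 0.073, adjusted p = 0.00315). These calls were kept under all 15 settings. RIOX2 was lower in siTET2 than in siTET1 (-0.45 ± 0.073, adjusted p = 0.00311), or not past the test without the second siTET1 or the first siTET2 array (adjusted p up to 0.0559). JMJD4 was lower in siTET2 than in siTET1 (-0.33 ± 0.073, adjusted p = 0.0201), a call lost when any siTET1 or siTET2 array was left out (adjusted p up to 0.166).

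**Figure D3:**
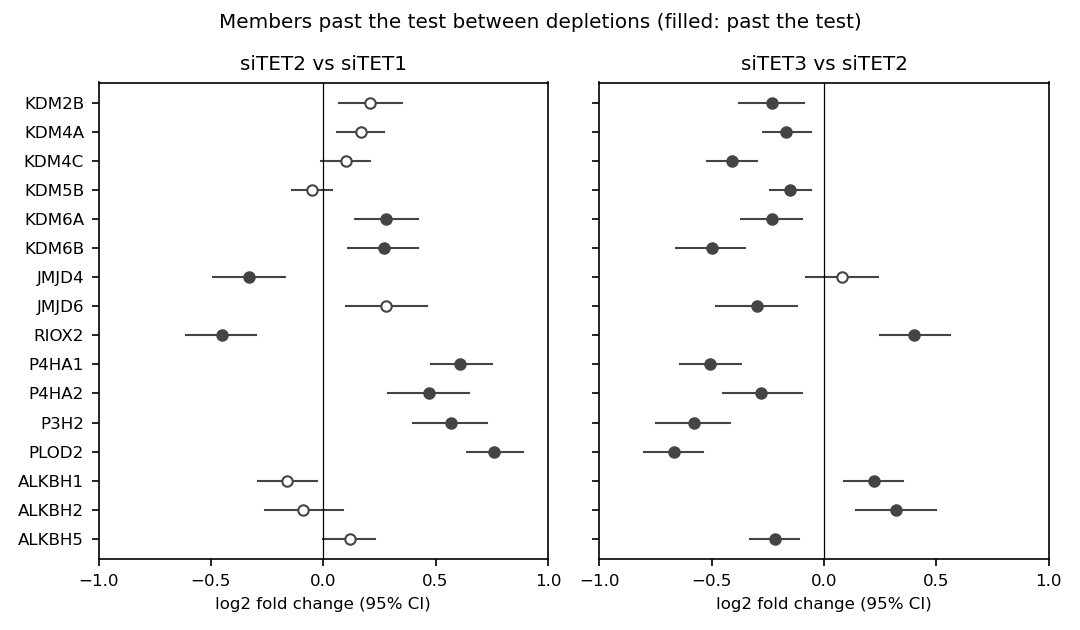
Log2 fold change between depletions, siTET2 against siTET1 (left) and siTET3 against siTET2 (right), for the 16 members past the test in either comparison. Bars are 95% confidence intervals and filled points passed the test; P4HA1, P4HA2, P3H2 and PLOD2 lie right of 0 on the left and left of 0 on the right, through the siTET2 arrays that both panels share.

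Each member's change was also set beside that of its chromosomal neighbours, the median of the 12 expressed genes on either side, since stretches of genes can shift together. In the mean of the depletions P3H2 changed by 2.42 ± 0.062 and its neighbours by 0.07. P4HA1 changed by 0.58 and its neighbours by 0.01, P4HA2 by 0.91 and its neighbours by 0.09, and PLOD2 by 0.76 and its neighbours by -0.06. JMJD4 changed by 0.59 and its neighbours by -0.09, and ALKBH7 by -0.72 and its neighbours by -0.04. The largest member changes thus stood on stretches whose medians stayed near 0. PLOD1 was at -0.49 with its neighbours at -0.15. P3H3 was at -0.20 and its neighbours at -0.23, and ALKBH8 was at 0.11, not past the test, with its neighbours at -0.33. With the neighbours' median subtracted, 27 members passed in the mean in place of 32. KDM4A and ALKBH8 were gained, and JMJD1C, KDM6B, HIF1AN, OGFOD1, P3H1, P3H3 and ASPH were lost. ALKBH8 then also passed as higher in each single depletion. Whether the shift of a stretch acts on the members within it was not tested.

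**Figure D4:**
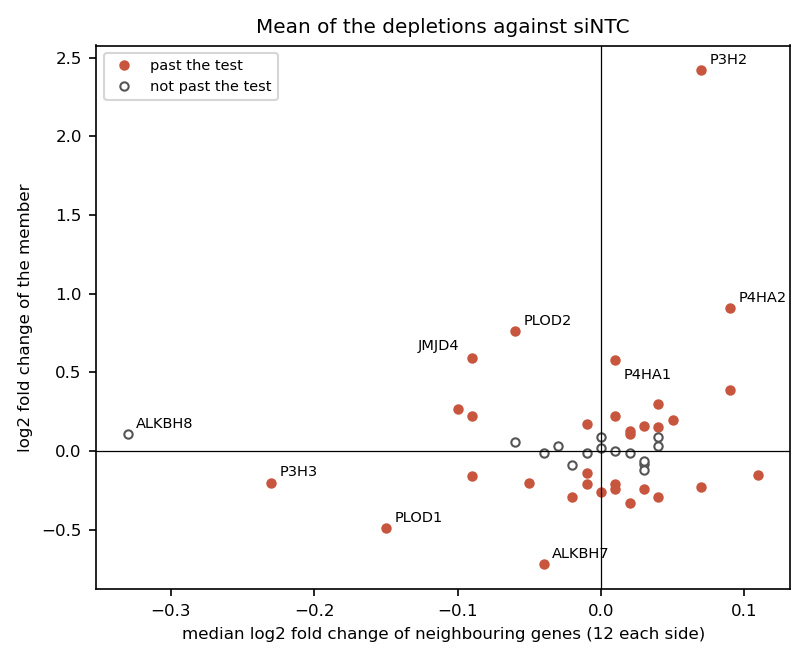
Log2 fold change of each measured member in the mean of the 3 depletions against siNTC (vertical), plotted against the median of its expressed neighbours, 12 genes on each side (horizontal). P3H2, P4HA2, PLOD2, JMJD4 and P4HA1 stand at 0.58 or more while their neighbours stay within 0.1 of 0.

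Genes around these enzymes were counted from companion lists. Of 11 further measured 2-oxoglutarate dioxygenases, 3 were higher and 4 lower in the mean of the depletions. KDM3A, a histone demethylase and known HIF target, had 9.62 and 9.59 in siTET1, 10.37 and 10.32 in siTET2, and 9.82 and 9.87 in siTET3, against 9.44 and 9.29 in siNTC. Every depletion array was above siNTC and siTET2 was the highest. It was higher by 0.24 ± 0.053 in siTET1 (limma adjusted p = 0.00339), 0.98 ± 0.053 in siTET2 (2.51e-08) and 0.48 ± 0.053 in siTET3 (1.35e-05). In the mean, KDM4D (-0.68), TYW5, a hydroxylase of transfer RNA (-0.42), JMJD8 (-0.35) and ASPHD1 (-0.27) were lower, and ASPHD2 (0.37) and EGLN1 (0.22) were higher. EGLN1, the main HIF prolyl hydroxylase, had 8.33 and 8.24 in siTET1, 8.90 and 8.92 in siTET2, and 8.25 and 8.32 in siTET3, against 8.36 and 8.18 in siNTC, so that only siTET2 lay clear of the rest.

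Of 13 HIF factors and adaptors, 3 were higher and 5 lower in the mean. ELOB (-0.66 ± 0.034), RBX1 (-0.33), ELOC (-0.27) and CUL2 (-0.25), parts of the ubiquitin ligase that the VHL protein guides to hydroxylated HIF, were lower, and VHL itself was higher (0.39 ± 0.062, limma adjusted p = 0.000183). Of 13 collagen maturation partners, 1 was higher and 3 lower. LOX, the oxidase that starts collagen cross-links, had 6.23 and 6.38 in siTET1, 7.78 and 7.94 in siTET2, and 6.69 and 6.69 in siTET3, against 5.47 and 5.39 in siNTC. All depletion arrays lay above siNTC, siTET2 most, by 0.88 ± 0.095 in siTET1 (adjusted p = 1.1e-05), 2.43 ± 0.095 in siTET2 (1.61e-09) and 1.26 ± 0.095 in siTET3 (4.3e-07). PPIB (-0.50), the collagen chaperone SERPINH1 (-0.29) and the galactosyltransferase COLGALT1 (-0.24) were lower. Of 18 collagen chains, 1 was higher (COL4A5, 0.31) and 3 were lower: COL18A1 (-0.88 ± 0.075), COL14A1 (-0.35) and COL5A2, which lay below background. The shares of all genes higher and lower in the mean, 16.5% and 24.2%, were close to or above those of these lists other than the further dioxygenases and the HIF list. Of expressed genes, 22.7% were higher and 30.5% lower in the mean.

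Of 18 genes of 2-oxoglutarate, succinate and fumarate metabolism, which make or use the cosubstrate and its products, 5 were higher and 7 lower in siTET1, 3 and 8 in siTET2, and 2 and 8 in siTET3. In the mean of the depletions 2 were higher and 7 lower, against 16.5% and 24.2% of all genes and 22.7% and 30.5% of expressed genes. SDHD, a membrane subunit of succinate dehydrogenase, had 11.36 and 11.31 in siTET1, 11.26 and 11.28 in siTET2, and 11.26 and 11.29 in siTET3, against 12.21 and 12.21 in siNTC. The 6 depletion arrays were nearly level and far below siNTC (-0.92 ± 0.028, limma adjusted p = 1.27e-10 in the mean). IDH3A (-0.57 ± 0.041) and IDH3B (-0.60 ± 0.046), subunits of the mitochondrial isocitrate dehydrogenase that yields 2-oxoglutarate, and PSAT1 (-0.59 ± 0.032), a transaminase that releases it, were lower too. Of 14 genes of iron and ascorbate supply, 3 were higher and none lower by limma: GSTO1 (0.56), the ferritin light chain FTL (0.55) and the transferrin receptor TFRC (0.25).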

How the data were processed

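The deposited table holds log2 intensities of 33297 transcript clusters on 8 arrays, which the authors normalized with Partek. Partek is named in the submitters' processing notes, and the sources used here do not give its version, background correction or summarization. The series carries no further columns of values. Symbols came from the platform annotation: 19460 clusters (58.4%) had 1 symbol, 1754 several and 12083 none, and the last 2 kinds were not used. A gene with several clusters (769 genes, KDM8 among the members) took the one with the highest mean. Positions, promoters and gene order came from RefSeq (GRCh38.p14), and the deposited values themselves carry no coordinates.

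limma 3.58.1, run in R 4.3.3, fitted 1 mean per group over the 8 arrays (lmFit and eBayes with an intensity trend, two-sided tests, 4 residual and 8.55 prior degrees of freedom), and 7 comparisons were drawn from it. The number of arrays limits the precision. The members and lists were chosen with earlier results of these data known. Values on every array are given for members past the test at 1.5-fold, for the TETs and for the 3 members of each role with the highest values, and companion lists are named by up to 4 genes past the test with the largest changes in the mean. Array values of PLOD3, PHF8, RIOX2, KDM4C, KDM3A, EGLN1, LOX, SDHD and KDM1A, and the list genes EGLN1, JMJD8, ASPHD1, CUL2 and KDM1A, were added after values were seen. Alternatives were quantile normalization, only the compared arrays, no trend, genes above background, cluster means, a replicate block, each array left out in turn, a 1.5-fold minimum and subtraction of the neighbours' median. Y-linked enzymes were not analysed here. Python 3.11.15 and its matplotlib 3.10.9 made the figures.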

Additional observations from a re-analysis of the deposited data

How the results depend on the processing

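None of the changes against siNTC of the 9 members tested 1 by 1 reversed under any alternative run. With a 1.5-fold minimum the members past the test numbered 4 in siTET1, 6 in siTET2, 3 in siTET3 and 5 in the mean of the depletions, and 2 in siTET2 against siTET1, 0 in siTET3 against siTET1 and 1 in siTET3 against siTET2, in place of 18, 29, 25, 32, 8, 6 and 15. Fitting only the compared arrays gave 15 for siTET2 against siTET1 and 3 for siTET3 against siTET1. Without an intensity trend the counts between depletions were 5, 1 and 7. With 1 array left out, they ranged from 13 to 21 in siTET1, 21 to 30 in siTET2, 17 to 23 in siTET3 and 16 to 32 in the mean, where the lowest came without the second siNTC array, and from 3 to 10, 1 to 10 and 7 to 15 between depletions. Of the single-member changes tested against siNTC for 9 members, 526 kept their side of the threshold and 5, all of JMJD6, did not. These 9 were the members past the test at 1.5-fold in any comparison, with PLOD1 and PLOD3 added. Chosen for large changes in these same data, they say little about the stability of the other members. Under the alternatives other than the 1.5-fold minimum (15 for each single comparison, 14 for the mean, and 1 fewer for BBOX1, which lay below background), the calls kept in all were 11 of 18 in siTET1, 20 of 29 in siTET2, 12 of 25 in siTET3, 14 of 32 in the mean, and 3 of 8, 1 of 6 and 6 of 15 between depletions. Deviations of same-numbered arrays correlated at 0.24 for siTET1 with siTET3 and at -0.04 to 0.03 for the other pairs of groups. The main fit did not pair the arrays, and whether siTET1 and siTET3 share a replicate effect was not tested. With the replicate number as a block, 19, 29, 24 and 30 members passed in siTET1, siTET2, siTET3 and the mean, and 10, 6 and 16 between depletions. A limit is the 2 arrays of a group: where a member was not past the test, a small change could not be told from the spread between arrays.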

Other observations

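Further lists bear mostly on the same marks as the members. Many of the 24 measured genes listed as histone methyltransferases place marks that the histone demethylases remove. By limma, 9 of the 24 were higher and 6 lower in the mean of the depletions against siNTC. Of all genes 16.5% were higher and 24.2% lower, and of expressed genes 22.7% and 30.5%. The same shares apply to the other lists given here. KMT2C, a methyltransferase of enhancers, was higher by 0.46 ± 0.038 in siTET1, 0.64 ± 0.038 in siTET2 and 0.38 ± 0.038 in siTET3. SETD7 was lower by -0.61 ± 0.083 in siTET1, -0.72 ± 0.083 in siTET2 and -0.50 ± 0.083 in siTET3, SETD1B by -0.46 ± 0.063 in the mean and KMT5A by -0.42 ± 0.037. Of 5 flavin-dependent demethylases and partners, 3 were higher and 1 lower. The corepressor RCOR2 was higher by 0.50 ± 0.076 in siTET1, 0.90 ± 0.076 in siTET2 and 0.35 ± 0.076 in siTET3, while KDM1A, the demethylase it binds, had 11.69 and 11.68 in siTET1, 11.68 and 11.66 in siTET2, and 11.70 and 11.69 in siTET3, against 11.77 and 11.66 in siNTC. Of 15 writers and readers of N6-methyladenosine, the mark that ALKBH5 and FTO erase, 4 were higher and 4 lower, among them METTL16 (0.36 ± 0.041), VIRMA (0.32 ± 0.052), IGF2BP3 (0.31 ± 0.035) and YTHDF1 (-0.25 ± 0.032).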
